A study of Mus musculus with 15 samples.

Results

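The genes described here encode potassium channel subunits of the mouse brain, with the proteins that assemble with them. They were chosen by name from the 45777 gene symbols of the series, as symbols of the form Kcn, letters and a number. Kcne2, Kcnj13, Kcnj8 and Kcnj10 were left out, and antisense and pseudogene entries were not taken. This gave 88 genes, of which 79 had at least 10 reads in at least 3 of the 15 libraries. Kcna7, Kcne1, Kcne3, Kcnj1, Kcnj15, Kcnk15, Kcnk16, Kcnk18 and Kcnmb3 did not reach that level. One further gene, Kcna10, had at most 13 reads in any library and was removed by the filter on low counts, so 78 genes were tested among 21821.

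Potassium channels let potassium ions leave or enter the cell and so set the resting potential and the shape and rate of action potentials. Voltage-gated channels (Kv) open on depolarisation and repolarise the membrane, and cytoplasmic beta subunits and calcium-binding KChIP proteins modify them. Calcium-activated channels (BK and SK) follow the calcium signal of the action potential. Inward rectifiers (Kir) and channels with paired pore domains (K2P) hold the membrane near rest, and some Kir channels are opened by G proteins, by a fall in ATP, or serve potassium uptake by glia.

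The series measured brain RNA of mice that had received MPTP, which is toxic to dopamine neurons, with and without later drug treatment. MPTP followed by the high or the low dose of an inhibitor of BTK, Bruton tyrosine kinase, formed the treated groups of main interest, and MPTP followed by levodopa, MPTP alone and untreated controls formed the others, with 3 libraries each. MPTP was injected intraperitoneally for 1 week (20 mg/kg/day), and the controls received none. Drug treatment followed for 4 weeks, with the inhibitor given by mouth at 2 or 1 µg/kg/day (also labelled 50 and 25 pM) and levodopa at 2 mg/kg/day, for which the labels name both an oral and an intraperitoneal route. The labels name no strain, sex or age, the protocol states 8 mice per group, and the labels do not say that each library is a separate mouse. The p-values below therefore measure the spread between these libraries, which may be technical.

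The labels say brain without naming a region, and levels of regional marker genes were uneven between libraries. Libraries from inhibitor-treated mice held 58149722 to 61998459 reads and the other 9 held 63314658 to 68257095, and the 79 genes took 0.404% to 0.711% of them. A marker score here is the mean difference, over a list of marker genes and on the log2 scale, between a library and the mean of all 15. The cerebellum score was 5.18 in levodopa 2 and 5.47 in control 2, and ran from -1.41 to 0.40 in the other 13. Striatal markers were also uneven within the controls, with scores of 2.46, -3.51 and -0.17 in controls 1, 2 and 3. The cortex and hippocampus score was higher in all 6 inhibitor libraries, at 0.82 to 2.39, than in the other 9, at -2.44 to 0.13. Of the 8 neuronal markers none was at 0 in any library, and their score lay between -0.18 and 0.16 throughout. In bulk tissue, fewer cells of a type and less RNA per cell cannot be told apart, and this holds for every value below.

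Levels are given in CPM, reads scaled to the library total with TMM factors, and levels of different genes are compared per kilobase of exon. By that measure Kcna1, the axonal Kv1.1 channel, was the most abundant, with a mean of 52.6 CPM per kb over the 15 libraries. Also among the most abundant were the Kv1 beta subunit gene Kcnab2 at 47.0 CPM per kb, the K2P channel gene Kcnk1 at 40.1 CPM per kb, and the fast Kv3 channel gene Kcnc1 at 30.8 CPM per kb. The range of Kcnc1 over libraries, 11.6 to 83.2 CPM per kb, overlapped that of Kcna1, 27.5 to 98.0 CPM per kb, so these ranks are not fixed across libraries.

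**Figure D1:**
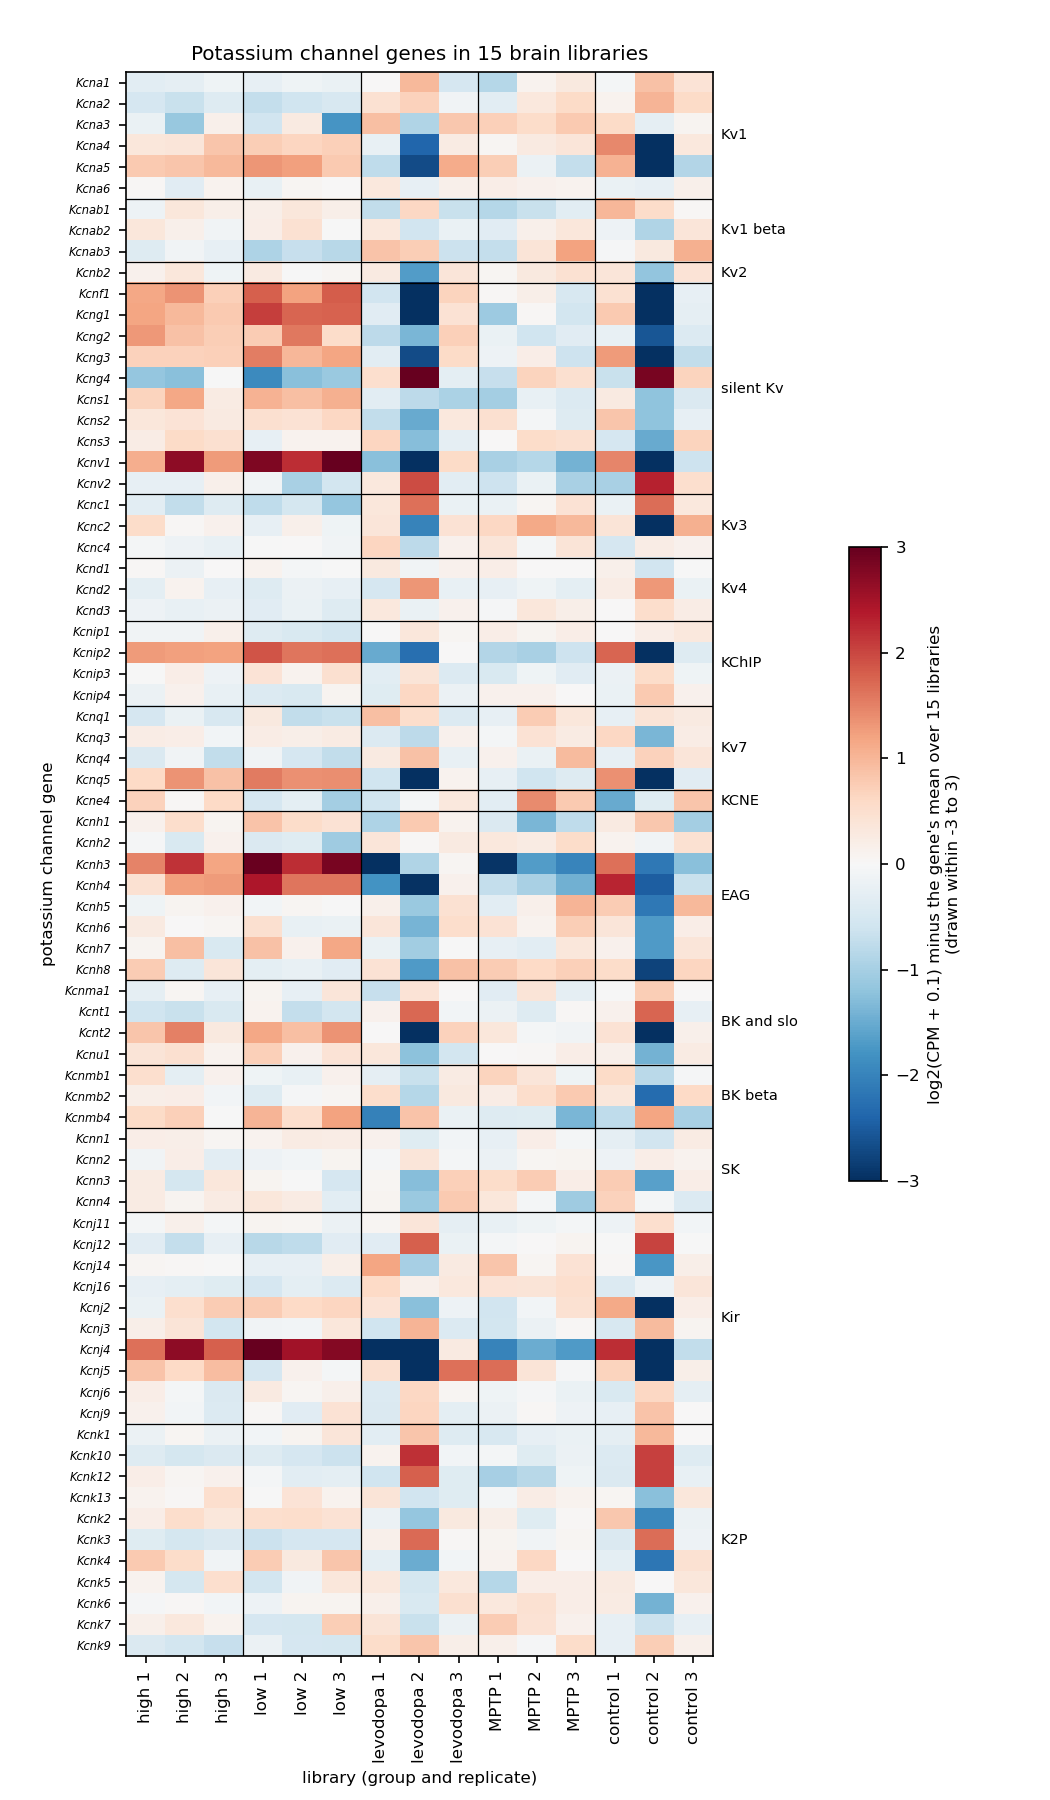
Heat map of 75 of the 78 tested potassium channel genes (rows, grouped by subfamily) in 15 libraries (columns, by group and replicate). Colour gives log2(CPM + 0.1) minus the mean of the gene over the 15 libraries, drawn within -3 to 3. Control 2 and levodopa 2 stand apart in most subfamilies, and Kcnh3, Kcnj4, Kcnv1 and Kcnip2 are high in inhibitor-treated mice and also in control 1.

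Control 2 and levodopa 2, the libraries with high cerebellar markers, set the extremes of many of these genes. Both lay above each of the other 13 libraries for 21 of 78 genes, where 20.2% of all genes did so, and below them for 35 of 78, where 20.3% of all genes did so. Kcng4, a silent subunit, had 227 CPM in levodopa 2 and 172 CPM in control 2, while it had 6.34 to 37.9 CPM elsewhere. The sodium-activated channel gene Kcnt1 reached 676 and 679 CPM in the same libraries, against 124 to 223 CPM. In the other direction Kcnv1, a silent subunit of the forebrain, had 0.563 CPM in levodopa 2 and 0.0328 CPM in control 2, and elsewhere ran from 3.39 to 76.3 CPM. The 6 inhibitor libraries all lay above the other 9 for 1 gene, Kcnf1, where 4.69% of all genes did so, and below them for 3 genes, Kcna2 and Kcnc1 among them, where 3.87% did so.

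**Figure D2:**
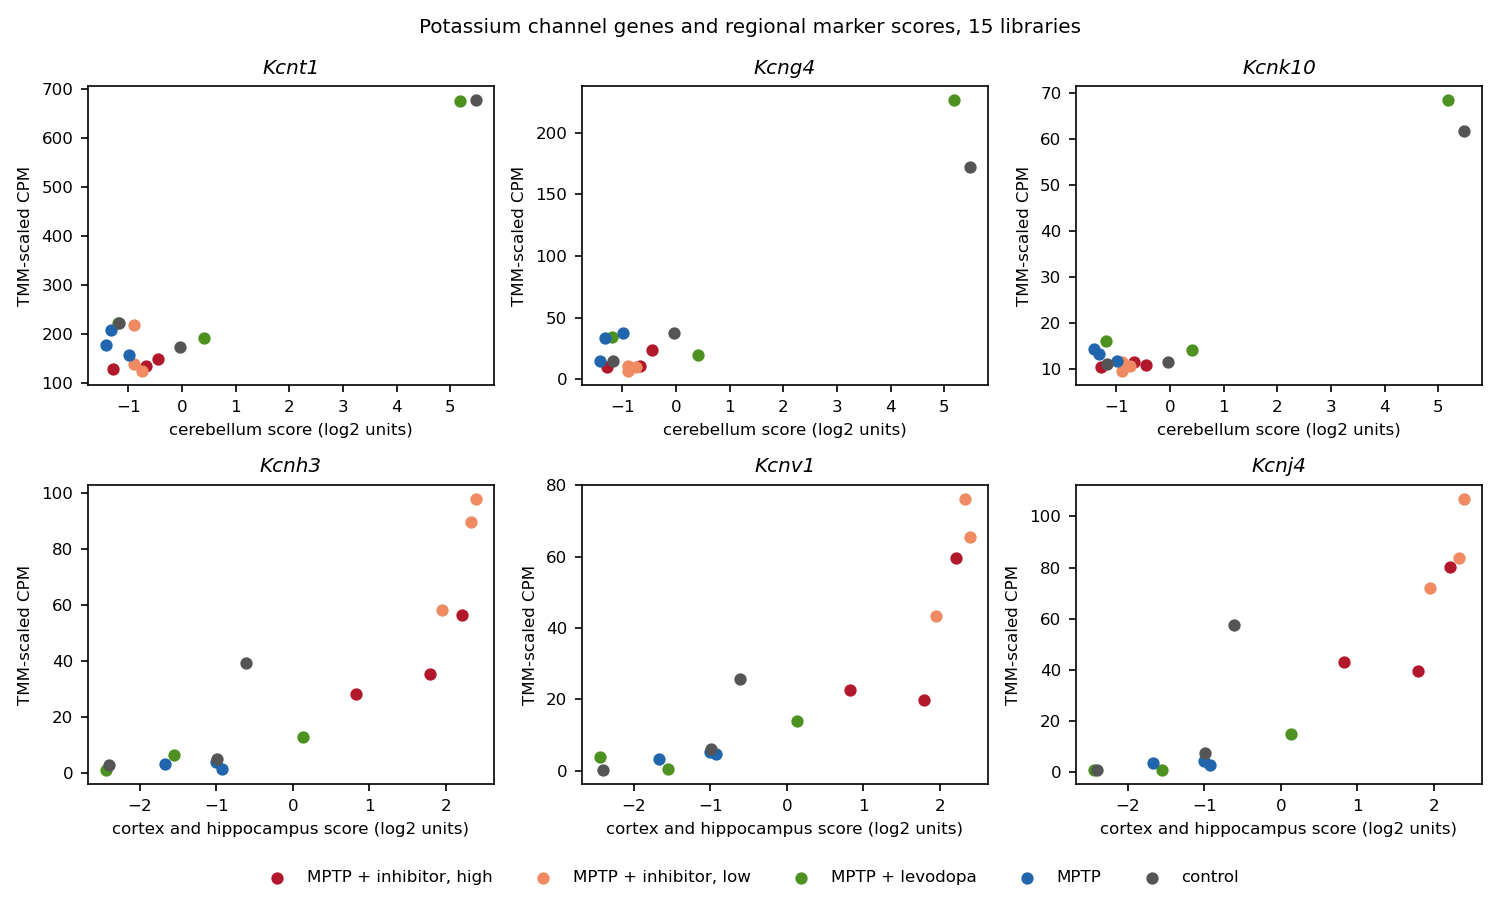
TMM-scaled CPM of 6 potassium channel genes (vertical axes) against the cerebellum score (upper row) or the cortex and hippocampus score (lower row), in log2 units, with 1 point per library and colours by group. Kcnt1, Kcng4 and Kcnk10 are high in the libraries with cerebellum scores of 5.18 and 5.47, and Kcnh3, Kcnv1 and Kcnj4 are high in inhibitor libraries and in control 1.

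Between the low-dose and MPTP groups, the pair with the most calls among these genes, 5 genes passed. Kcnh3 and Kcns1 rose, and Kcnip1, Kcnj16 and Kcnh2 fell, while 73 of 78 genes did not pass (edgeR quasi-likelihood test, Benjamini-Hochberg adjusted over 21821 genes, threshold 0.05). The 2 rises compare with 4.78% of all genes rising and the 3 falls with 3.75% of all genes falling, so the shares among the channel genes were near those of all genes. Neither the median log2 fold change of the 78 genes, 0.005, nor that of all genes, -0.005, was far from 0. The 5 genes belong to 4 subfamilies, and in the other 11 subfamilies 0 members passed with 15 libraries. Without control 2 and levodopa 2, KCNE and SK were the subfamilies with 0 calls.

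Marker levels of several regions and cell types also lay apart between the low-dose and MPTP groups. Striatal scores were 1.60 to 1.90 in low-dose libraries and -1.18 to -0.93 in MPTP libraries, with the 12 markers summing to 1430 to 1820 CPM against 228 to 289 CPM. Choroid plexus scores were 1.26 to 1.80 in low-dose libraries and -1.72 to -1.12 in MPTP libraries, with the 6 markers at 884 to 1380 CPM against 24.6 to 34.6 CPM. Thalamus and midbrain scores were lower, at -1.22 to 0.04 in low-dose libraries and 0.72 to 1.23 in MPTP libraries, with the 11 markers at 296 to 600 CPM against 1230 to 1540 CPM. The 12 cortex and hippocampus markers summed to 1070 to 1420 CPM against 331 to 367 CPM, and none of the markers of these 4 lists was at 0 in these libraries. The part of the striatal and choroid plexus markers in the calls was not tested, and the other lists entered the covariate fit given below.

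Kcnh3 encodes Kv12.2, a channel of the ether-a-go-go (EAG) family that is found in forebrain neurons (chromosome 15, 99224861 to 99242817 of GRCm38, plus strand). It had 98.1, 58.3 and 89.6 CPM in low-dose libraries 1, 2 and 3, against 1.52, 3.81 and 3.06 CPM in MPTP libraries 1, 2 and 3. The groups did not overlap, and the log2 fold change was 4.87 (SE 1.07, edgeR adjusted p = 0.0183). Control 1 also had a high level, 39.2 CPM, against 2.74 and 5.15 CPM in controls 2 and 3, so that the low-dose level was above the control mean by 2.38 on the log2 scale, which did not pass (SE 0.95, edgeR adjusted p = 0.148). Levodopa libraries had 0.88, 6.58 and 13.0 CPM. The call was lost without MPTP 1, 2 or 3 or low-dose 3 (edgeR adjusted p = 0.0662, 0.0737, 0.0778 and 0.0515). The cortex and hippocampus scores were 1.95 to 2.39 in low-dose libraries and -1.68 to -0.93 in MPTP libraries. In control 1, where Kcnh3 was high, that score was -0.62 and the striatal score, 2.46, was the highest of all libraries. The part of the striatal markers in the result was not tested, and that of the cortex and hippocampus markers not beyond the covariate fit given below.

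Kcns1 encodes Kv9.1, a silent subunit that forms no channel alone and modifies Kv2 channels (chromosome 2, 164163619 to 164171113, minus strand). Its levels were 7.93, 7.14 and 8.04 CPM in the low-dose group and 1.83, 3.21 and 2.81 CPM after MPTP. The 3 low-dose libraries were above each MPTP library (log2 fold change 1.56, SE 0.37, edgeR adjusted p = 0.024). Its call was lost without MPTP 1, 2 or 3 or low-dose 1 or 3 (edgeR adjusted p = 0.0803, 0.0641, 0.0792, 0.0535 and 0.0694). It was the one member that also rose against controls, which had 4.57, 1.58 and 2.79 CPM.

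Kcnip1 encodes KChIP1, a calcium-binding partner of Kv4 channels in many interneurons (chromosome 11, 33629339 to 33993152, minus strand). The low-dose libraries had 36.0, 34.7 and 32.5 CPM and the MPTP libraries 54.1, 50.3 and 54.1 CPM. All 3 low-dose libraries lay below each of the other 12, in which Kcnip1 ran from 44.1 to 60.4 CPM. The share of all genes with this pattern was not counted. The log2 fold change against MPTP was -0.62 (SE 0.12, edgeR adjusted p = 0.0115), the smallest adjusted p of the family, and it was lost without MPTP 3 or low-dose 3 (edgeR adjusted p = 0.0615 and 0.0515). Kcnmb1, a BK beta subunit gene, lies within the span of Kcnip1 on the other strand and shares no exon bases with it.

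Kcnj16 encodes Kir5.1, an inward rectifier of glia and kidney that pairs with Kir4.1 (chromosome 11, 110968033 to 111027968, plus strand). It had 27.4, 31.9 and 29.6 CPM in the low-dose group and 51.8, 51.2 and 55.5 CPM after MPTP, with no overlap (log2 fold change -0.83, SE 0.17, edgeR adjusted p = 0.0151). Without MPTP 3 it did not pass (edgeR adjusted p = 0.0632). Controls had 29.4, 35.0 and 50.5 CPM, so controls 1 and 2 were near the low-dose level and control 3 near that of MPTP. Astrocyte marker scores were -0.42 to -0.02 in low-dose libraries and -0.15 to 0.19 in MPTP libraries, overlapping ranges, and their part in the result was not tested.

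Kcnh2 encodes ERG1, an EAG-family channel with slow deactivation (chromosome 5, 24319589 to 24351604, minus strand). Low-dose libraries had 41.8, 43.9 and 27.2 CPM, against 70.1, 67.7 and 82.9 CPM after MPTP. The lowest value was in low-dose 3, and the groups did not overlap (log2 fold change -0.97, SE 0.21, edgeR adjusted p = 0.0169). Without MPTP 2, MPTP 3 or low-dose 3 it did not pass (edgeR adjusted p = 0.052, 0.0766 and 0.0573).

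**Figure D3:**
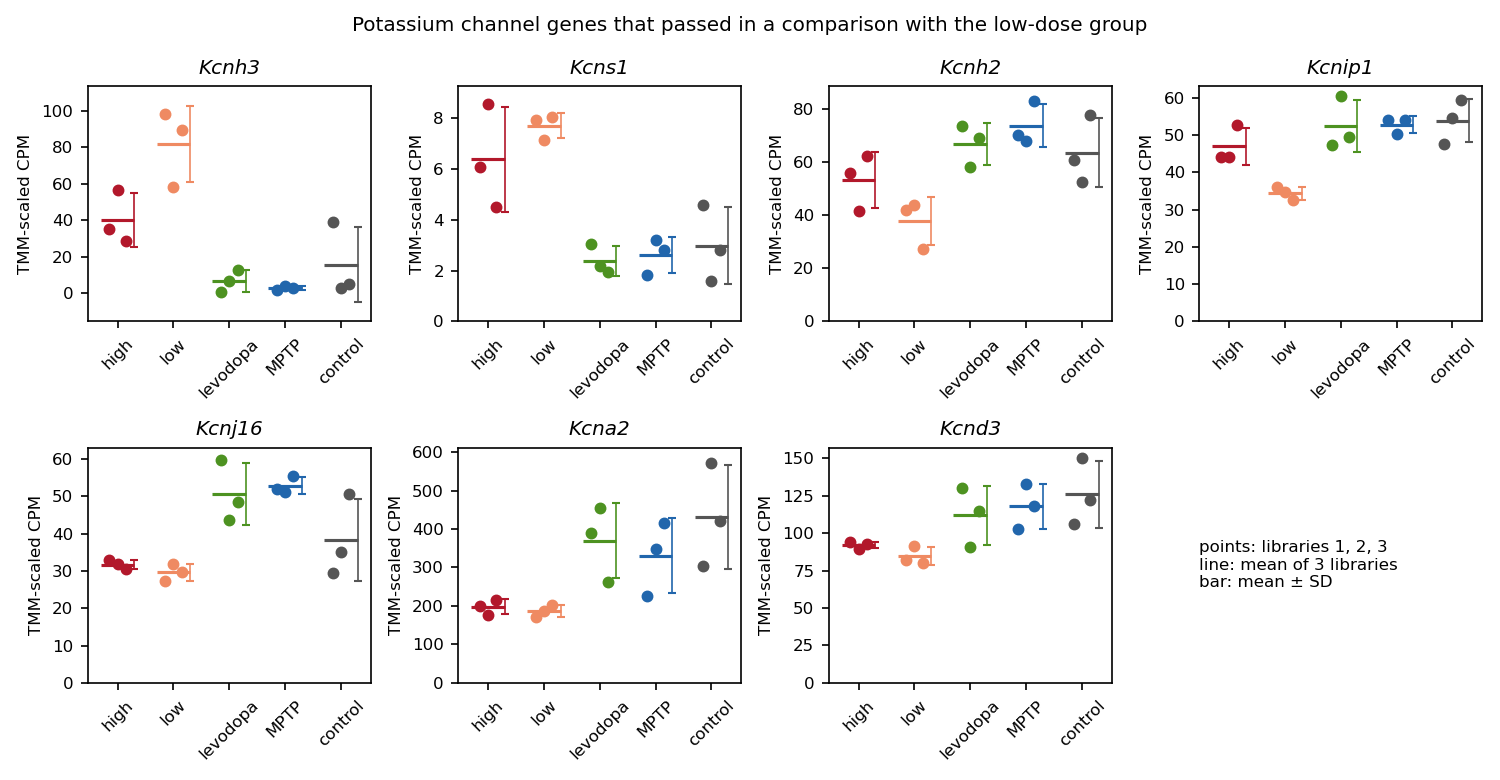
TMM-scaled CPM (vertical axes) of the 7 potassium channel genes that passed in a comparison with the low-dose group, in 5 groups of 3 libraries. Points are libraries 1, 2 and 3, lines are means and bars are mean ± SD. Kcnip1 is lowest in the 3 low-dose libraries, at 32.5 to 36.0 CPM, and Kcnh3 is high in the inhibitor libraries and in control 1.

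Promoters of 4 of the 5 genes that passed between low dose and MPTP are shown, with that of Kcnh1, because the title of the series names the transcription factor Nurr1 and the windows were read for its motif and 3 others. For Kcnj16 the window of its first start is shown of 4, and for Kcnip1 those with a motif, 2 of 3. The windows left out, and those of Kcna2 and Kcnd3, held none of the 4 motifs. Of the 78 genes 54 have promoters in the RefSeq table (GRCm38.p6), in 77 windows that cover the 250 bases before a start site. The motifs searched on both strands were the NBRE bound by the Nurr1 family (AAAGGTCA), an EGR motif (GCGTGGGCG), the cyclic AMP response element (TGACGTCA) and a NEUROD E-box (CAGATG). They were found in 1, 0, 0 and 9 of the 77 windows, shares of 1.3%, 0%, 0% and 11.7%, against 1.34%, 0.536%, 1.55% and 14.4% of 32851 promoters in all. The motifs did not overlap one another in the windows shown, and a match is a description of letters. Capitals mark a motif or its reverse complement. The first windows belong to Kcnip1 at chr11:33680683-33680932 (minus strand), with the E-box beginning 148 bases before the start, and to another of its starts at chr11:33843687-33843936 (minus strand), where it begins 182 bases before the start. The others are Kcns1 at chr2:164171114-164171363 (minus strand), Kcnh2 at chr5:24329592-24329841 (minus strand) and Kcnj16 at chr11:110967783-110968032 (plus strand). The Kcnh2 window lies before an inner start, within the gene span of 24319589 to 24351604, and the outer end of the gene was not covered. The last is Kcnh1, the single gene with the NBRE, at chr1:192190527-192190776 (plus strand), with the motif beginning 223 bases before the start.
Kcnip1, inner start: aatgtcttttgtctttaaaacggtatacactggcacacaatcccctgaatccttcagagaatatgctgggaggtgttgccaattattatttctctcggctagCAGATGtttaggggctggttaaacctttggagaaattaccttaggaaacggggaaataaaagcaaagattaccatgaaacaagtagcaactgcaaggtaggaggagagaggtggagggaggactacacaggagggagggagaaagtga
Kcnip1, middle start: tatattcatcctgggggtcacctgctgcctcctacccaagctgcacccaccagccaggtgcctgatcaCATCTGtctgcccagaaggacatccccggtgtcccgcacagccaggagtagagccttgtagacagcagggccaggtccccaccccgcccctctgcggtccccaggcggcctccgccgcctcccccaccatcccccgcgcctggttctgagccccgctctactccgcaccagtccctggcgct
Kcns1: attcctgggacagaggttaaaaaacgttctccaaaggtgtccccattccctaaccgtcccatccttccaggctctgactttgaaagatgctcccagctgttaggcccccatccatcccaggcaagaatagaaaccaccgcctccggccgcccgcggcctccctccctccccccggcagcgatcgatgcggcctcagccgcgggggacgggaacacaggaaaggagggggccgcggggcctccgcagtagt
Kcnh2: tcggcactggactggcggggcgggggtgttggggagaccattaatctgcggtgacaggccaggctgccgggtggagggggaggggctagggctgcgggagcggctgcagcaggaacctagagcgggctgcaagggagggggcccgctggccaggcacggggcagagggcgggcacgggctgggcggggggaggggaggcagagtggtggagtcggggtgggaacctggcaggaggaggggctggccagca
Kcnj16: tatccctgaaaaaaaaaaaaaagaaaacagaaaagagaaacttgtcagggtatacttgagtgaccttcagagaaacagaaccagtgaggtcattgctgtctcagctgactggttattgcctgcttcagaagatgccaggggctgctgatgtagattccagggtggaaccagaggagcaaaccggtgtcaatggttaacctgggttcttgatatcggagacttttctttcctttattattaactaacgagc
Kcnh1: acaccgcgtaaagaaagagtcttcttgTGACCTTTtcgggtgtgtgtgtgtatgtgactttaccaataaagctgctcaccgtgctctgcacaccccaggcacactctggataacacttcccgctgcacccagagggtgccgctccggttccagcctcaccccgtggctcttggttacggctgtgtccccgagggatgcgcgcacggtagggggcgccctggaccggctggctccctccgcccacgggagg

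The number of genes that passed depended on 2 libraries that are in neither group. Without control 2 and levodopa 2, whose removal lowered the common biological coefficient of variation to 0.22, against 0.355 with all 15, 18 of 78 genes rose and 14 fell between low dose and MPTP, where 12% of 22324 genes rose and 11.7% fell. That fit tested Kcna10 in place of Kcnv2 and was chosen with the marker scores known. With the cortex and hippocampus, cerebellum, and thalamus and midbrain scores, 3 in all, as covariates 0 of 21821 genes passed, channel genes included, and the log2 fold change of Kcnh3 became 0.38. The first and last of these scores did not overlap between low-dose and MPTP libraries, so the covariate fit cannot tell group and regional content apart. Levels of other genes are given below by subfamily. Genes said to have passed, risen or fallen without control 2 and levodopa 2 did so in the fit of the other 13 libraries. In all, 24 genes were higher and 19 lower in the low-dose group without overlap, against 20.9% and 19.8% of all genes.

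Of Kv1 genes 0 of 6 and of their beta subunits 0 of 3 passed in the fit of 15 libraries. Kcna2, the axonal Kv1.2 channel, had 172, 186 and 203 CPM in low-dose libraries and 226, 349 and 417 CPM in MPTP libraries, which did not pass (log2 fold change -0.82, SE 0.26, edgeR adjusted p = 0.0709) except without control 2 and levodopa 2. The beta subunit gene Kcnab1 had 125 ± 7.74 against 70.4 ± 13.4 CPM (SD, n = 3 each) and also passed without them. Kcna1 showed 209 ± 9.99 and 227 ± 84.7 CPM, and Kcna4, an A-type channel, 58.6 ± 2.09 and 42.3 ± 4.55 CPM. Kcna3, a channel of lymphocytes and microglia, was low, at 2.03 ± 1.34 and 4.66 ± 0.371 CPM. Microglia scores were 0.25 to 0.32 in low-dose libraries and -0.03 to 0.27 in MPTP libraries.

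The silent subunits Kcnf, Kcng, Kcns and Kcnv had the largest median of the multi-gene subfamilies, a log2 fold change of 1.43 over 10 genes, against 0.005 over all 78. Kcnv1 had 65.4, 43.3 and 76.3 CPM in low-dose libraries and 4.65, 5.10 and 3.39 CPM in MPTP libraries, a log2 fold change of 3.81 with a wide error (SE 1.35, edgeR adjusted p = 0.0984). Kcnf1 had 118, 79.1 and 119 CPM, against 34.8, 38.3 and 24.2 CPM. Kcng1 had 29.7 ± 3.90 and 5.79 ± 2.27 CPM. Without control 2 and levodopa 2, Kcnf1, Kcng1, Kcng2, Kcng3, Kcns1 and Kcnv1 rose and Kcng4 fell. Of their partners in the Kv2 family, Kcnb2 had 21.0 ± 2.24 against 23.8 ± 3.33 CPM.

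Kv3 genes let neurons fire at high rates, and 0 of 4 passed in the fit of 15 libraries. Kcnc1 had 145, 169 and 110 CPM, against 213, 254 and 331 CPM after MPTP. Kcnc2 had 93.4 ± 13.8 against 186 ± 33.8 CPM. Both were lower in the low-dose group without overlap but did not pass with 15 libraries (edgeR adjusted p = 0.263 and 0.463), and both fell without control 2 and levodopa 2.

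Kv4 channels carry the A-type current, and KChIP proteins regulate them. Kcnd3, the Kv4.3 channel, had 82.3, 91.5 and 79.9 CPM in the low-dose group and 103, 133 and 118 CPM after MPTP, and did not pass (log2 fold change -0.48, SE 0.15, edgeR adjusted p = 0.0699), but fell without control 2 and levodopa 2 (edgeR adjusted p = 0.00884). It shares exon bases with an antisense gene, as does Kcnab1 with a gene on the other strand, and the strand setting of the counting is not given. Kcnd2 had 106 ± 8.63 against 109 ± 5.98 CPM. Kcnip2 had 136, 113 and 116 CPM in low-dose libraries and 19.9, 18.6 and 23.8 CPM in MPTP libraries, opposite in direction to Kcnip1 (log2 fold change 2.55, SE 0.93, edgeR adjusted p = 0.107). Control 1 had 124 CPM of Kcnip2, against 2.23 and 28.3 CPM in controls 2 and 3. Kcnip3, whose protein is also known as the repressor DREAM, had 106 ± 14.2 against 67.1 ± 7.48 CPM, and Kcnip4 80.8 ± 17.4 against 102 ± 4.37 CPM. Kcnip2 and Kcnip3 rose without control 2 and levodopa 2 (edgeR adjusted p = 0.00342 and 0.00357).

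In the EAG family, apart from Kcnh3 and Kcnh2, Kcnh1 had 60.7, 49.1 and 45.6 CPM in low-dose libraries and 24.8, 12.9 and 19.8 CPM in MPTP libraries (log2 fold change 1.44, SE 0.45, edgeR adjusted p = 0.0676). Kcnh4, an ELK channel like Kcnh3, had 22.4, 12.6 and 12.5 CPM, against 2.44, 2.01 and 1.44 CPM, and reached 20.2 CPM in control 1. Both passed without control 2 and levodopa 2. Kcnh7, another ERG channel, overlapped between the groups at 69.7 ± 23.6 and 39.4 ± 10.6 CPM, and Kcnh8 fell without control 2 and levodopa 2 (log2 fold change -1.04).

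Kcnq3 encodes a subunit of the M channel, which damps repetitive firing, and did not pass, with 143 ± 3.87 against 144 ± 23.7 CPM. Kcnq5 had 77.8 ± 5.32 against 21.6 ± 2.51 CPM without overlap (log2 fold change 1.85, SE 0.87, edgeR adjusted p = 0.201) and passed without control 2 and levodopa 2. Kcne4, the tested member of the KCNE beta subunits, had 0.915 ± 0.247 against 2.51 ± 1.41 CPM.

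Of BK and slo genes 0 of 4, of BK beta subunits 0 of 3 and of SK genes 0 of 4 passed. Kcnma1, the pore of the BK channel, had 264 ± 55.8 against 243 ± 72.2 CPM. Its neuronal beta subunit Kcnmb4 had 51.2, 35.7 and 58.4 CPM, against 19.2, 19.3 and 9.63 CPM, and rose without control 2 and levodopa 2, as did the sodium-activated Kcnt2 (log2 fold change 1.07), while the beta subunit gene Kcnmb2 fell (-0.67). Kcnn3, the SK channel that paces dopamine neurons, had 19.9 ± 4.18 against 31.2 ± 5.92 CPM (log2 fold change -0.65, SE 0.54, edgeR adjusted p = 0.489), and the dopamine neuron marker score was -2.63 to 0.70 in low-dose libraries and 1.54 to 2.09 in MPTP libraries. Kcnn4, known from lymphocytes and microglia, had 0.363 ± 0.103 against 0.284 ± 0.169 CPM.

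Of the inward rectifiers, Kcnj4 (Kir2.3) had 107, 72.0 and 83.8 CPM in low-dose libraries and 3.03, 4.33 and 3.73 CPM in MPTP libraries, and it did not pass with 15 libraries (log2 fold change 4.56, SE 1.34, edgeR adjusted p = 0.0542) but rose without control 2 and levodopa 2 (edgeR adjusted p = 0.00434). It had 57.6 CPM in control 1 and 0.69 and 7.43 CPM in controls 2 and 3. The G-protein-gated genes Kcnj3, Kcnj6 and Kcnj9 did not pass, at 100 ± 18.2 against 83.4 ± 16.3 CPM, 85.1 ± 6.30 against 70.0 ± 4.07 CPM and 115 ± 30.6 against 103 ± 8.02 CPM. Kcnj11, the pore of the ATP-sensitive channel, had 30.3 ± 2.89 against 27.7 ± 1.56 CPM. Kcnj12, an inward rectifier of the Kir2 group, fell without control 2 and levodopa 2 (log2 fold change -0.65).

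Of the K2P genes 0 of 11 passed. Kcnk9 (TASK3), an acid-sensitive leak channel, had 130, 103 and 101 CPM in the low-dose group and 161, 143 and 212 CPM after MPTP (log2 fold change -0.63, SE 0.24, edgeR adjusted p = 0.123). Kcnk3 (TASK1) had 18.9 ± 1.12 against 27.8 ± 1.91 CPM. Both fell, and Kcnk1 rose, without control 2 and levodopa 2. Kcnk2 had 53.4 ± 1.99 against 37.2 ± 6.89 CPM, and Kcnk13, a microglial channel, 11.8 ± 1.86 against 11.2 ± 1.03 CPM.

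**Figure D4:**
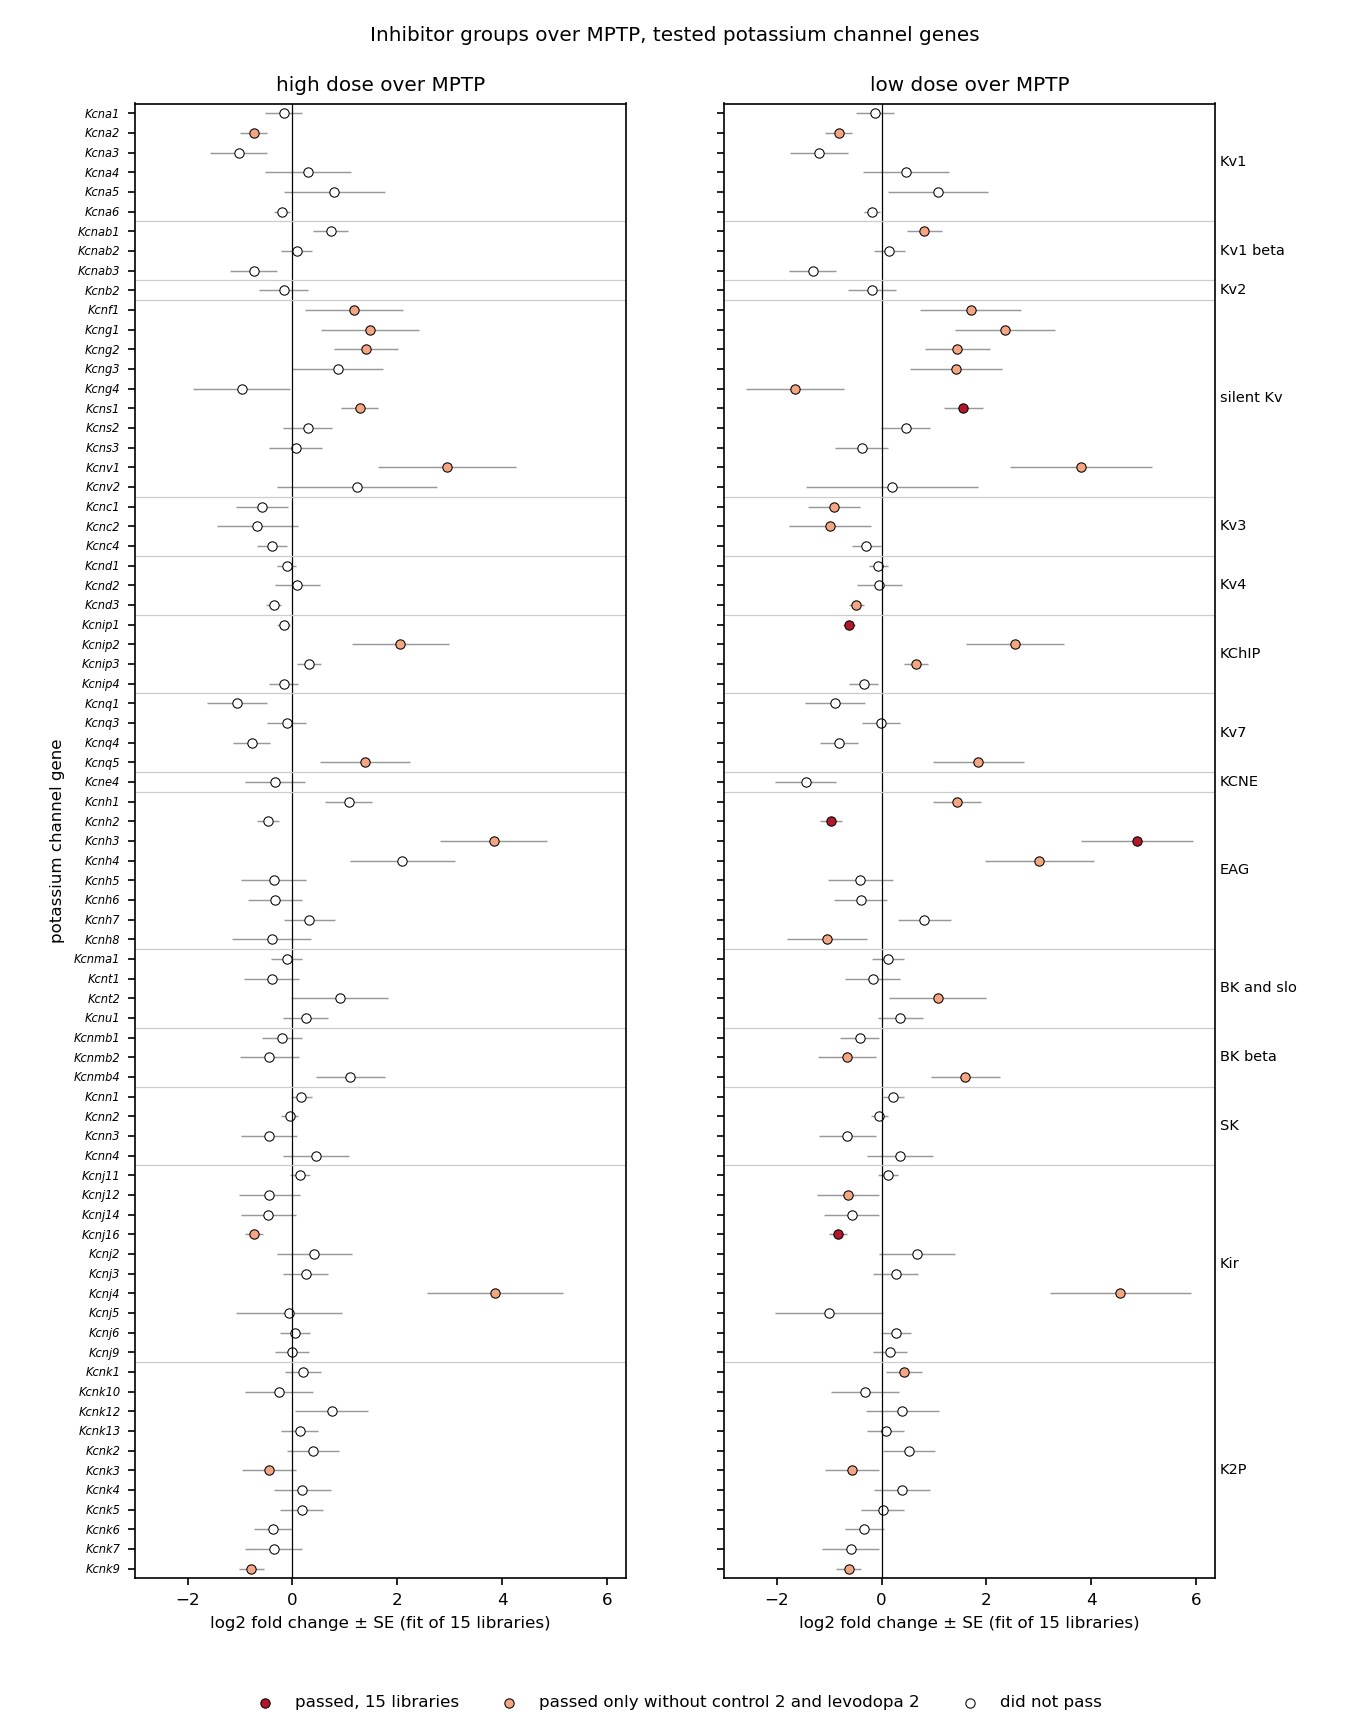
Log2 fold change ± SE (horizontal axes, fit of 15 libraries) of 75 of the 78 tested potassium channel genes, grouped by subfamily, for high dose over MPTP (left) and low dose over MPTP (right). Dark points passed in the fit of 15 libraries, pale points passed only in the fit without control 2 and levodopa 2, and white points did not pass. The largest values on the right are 4.87 for Kcnh3 and 4.56 for Kcnj4.

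In the high-dose group, set against MPTP alone, edgeR called 0 of 78 channel genes, where 1.97% of all genes were called. An unadjusted p under 0.05 by edgeR was found for 13 channel genes and 4045 of 21821 genes in all. By DESeq2 3 channel genes rose and 2 fell, and its count over all genes is given in the last section. Kcnj16 was nearest, with 32.8, 31.8 and 30.4 CPM in high-dose libraries and 51.8, 51.2 and 55.5 CPM in MPTP libraries (log2 fold change -0.74, SE 0.17, edgeR adjusted p just over the threshold). Kcnh3 had 35.3, 56.6 and 28.4 CPM, against 1.52, 3.81 and 3.06 CPM (log2 fold change 3.84, SE 1.02, edgeR adjusted p = 0.0729). Kcns1 had 6.06, 8.55 and 4.49 CPM, against 1.83, 3.21 and 2.81 CPM. Kcnip1 overlapped, at 47.0 ± 4.91 and 52.8 ± 2.21 CPM. Groups did not overlap for 18 higher and 16 lower genes, against 20.4% and 19.4% of all genes. Without control 2 and levodopa 2, 9 genes rose and 4 fell, where 5.89% and 5.21% of all genes did. In that fit 13 channel genes passed at both doses, and the share of all genes that did so was not counted. The MPTP libraries are shared by both comparisons. In high-dose libraries striatal scores were 0.39 to 1.69, choroid plexus scores 0.55 to 1.54 and thalamus and midbrain scores -0.40 to 0.39, each range apart from that of MPTP, and the part of the striatal and choroid plexus markers was not tested.

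The doses were compared with each other directly. With edgeR 0 of 78 channel genes passed, where 0% of all genes did, with 3 channel genes and 486 genes in all at an unadjusted p under 0.05, and DESeq2 called 0 channel genes. Kcnip1 had 44.2, 44.1 and 52.7 CPM at the high dose and 36.0, 34.7 and 32.5 CPM at the low dose (log2 fold change 0.45, 95% interval 0.19 to 0.71, SE 0.12, edgeR adjusted p = 1). Kcnh2 had 53.0 ± 10.5 and 37.6 ± 9.09 CPM and Kcnh3 40.1 ± 14.7 and 82.0 ± 20.9 CPM. At the high dose 6 genes were higher and 9 lower without overlap, against 5.23% and 5.34% of all genes. The cortex and hippocampus scores were 0.82 to 2.21 at the high dose and 1.95 to 2.39 at the low dose.

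The doses were also set against untreated controls, a group that includes control 2. At the low dose Kcns1 rose (log2 fold change 1.37, SE 0.36, edgeR adjusted p = 0.0489), which was 1 of 78 genes where 2.74% of all genes rose. Kcnip1, Kcna2 and Kcnd3 fell, 3 of 78 where 2.66% of all genes fell. Kcna2 had 172, 186 and 203 CPM in low-dose libraries and 303, 572 and 420 CPM in controls, the highest in control 2 (log2 fold change -1.21, SE 0.27, edgeR adjusted p = 0.0277). Kcnip1 had 34.4 ± 1.75 against 53.8 ± 5.82 CPM (log2 fold change -0.64, SE 0.12, edgeR adjusted p = 0.0167), and Kcnd3 had 84.5 ± 6.12 against 126 ± 22.1 CPM (log2 fold change -0.58, SE 0.15, edgeR adjusted p = 0.0489). Of the low-dose and control libraries, each left out alone, all but control 1 ended the calls of Kcns1, Kcna2 and Kcnd3 (edgeR adjusted p from 0.0578 to 0.153). Leaving out control 2, control 3 or low-dose 3 ended that of Kcnip1 (edgeR adjusted p from 0.0505 to 0.0772). Without control 2 and levodopa 2 together, 4 genes rose and 7 fell, where 3.85% and 4.48% of all genes did, and Kcns1 was not among them (edgeR adjusted p = 0.0681). With only the low-dose and control groups in the fit 0 channel genes passed. At the high dose 0 of 78 passed with edgeR, where 0.376% of all genes did. An unadjusted p under 0.05 by edgeR was found for 11 channel genes and 4370 of 21821 genes in all. By DESeq2 1 channel gene rose and 3 fell, with the count over all genes in the last section. Kcna2 there had 197 ± 19.5 against 432 ± 135 CPM (log2 fold change -1.13, SE 0.26, edgeR adjusted p = 0.0766).

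**Figure D5:**
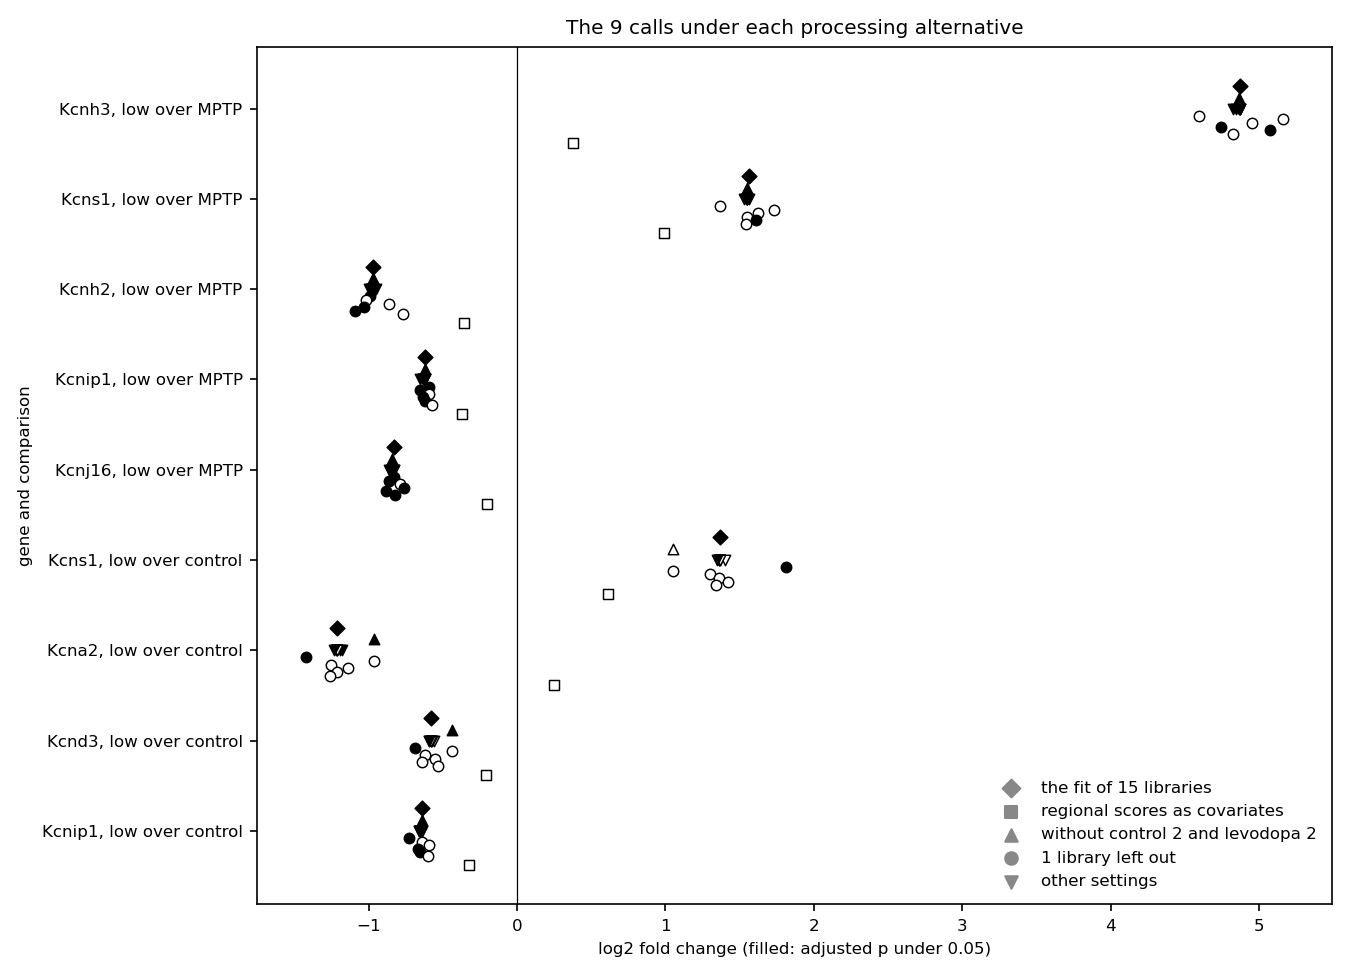
Log2 fold change (horizontal axis) of the 9 potassium channel calls under each processing alternative, with filled markers for adjusted p under 0.05. Squares give the fit with regional scores as covariates, in which 0 of the 9 passed and Kcna2 against controls had a log2 fold change of 0.25.

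Between MPTP alone and controls, which by the labels differ in the toxin, 0 of 78 channel genes passed with edgeR, where 0% of all genes did. An unadjusted p under 0.05 was found for 6 channel genes and 1445 genes in all, and by DESeq2 0 channel genes passed. Kcnab1 had 58.8, 67.4 and 85.1 CPM after MPTP and 214, 155 and 110 CPM in controls, without overlap (log2 fold change -1.18, SE 0.34, edgeR adjusted p = 0.717). Kcnj16 had 52.8 ± 2.34 against 38.3 ± 10.9 CPM. Of channel genes with roles in dopamine neurons, Kcnj6 had 70.0 ± 4.07 against 79.0 ± 33.8 CPM, Kcnn3 31.2 ± 5.92 against 22.8 ± 14.9 CPM and Kcnd3 118 ± 15.4 against 126 ± 22.1 CPM. Dopamine neuron marker scores were 1.54 to 2.09 in MPTP libraries and -3.22 to 1.38 in controls. Toxin and regional content cannot be told apart in these values. Groups did not overlap for 2 higher genes and 1 lower gene, against 6.83% and 6.2% of all genes.

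Between levodopa and MPTP, edgeR called 0 of 78 channel genes, where 0% of all genes were called, with 0 channel genes and 645 genes in all at an unadjusted p under 0.05, and DESeq2 called 0 channel genes. Kcnh1 had 17.8, 57.7 and 36.0 CPM in levodopa libraries and 24.8, 12.9 and 19.8 CPM in MPTP libraries, which overlapped (log2 fold change 0.96, SE 0.45, edgeR adjusted p = 0.954). Its highest value was in levodopa 2, where cerebellar markers were high. Without overlap 0 channel genes were higher and 2 were lower, Kcnc2 and Kcnk4, against 4.93% and 4.65% of all genes.

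Other genes that handle potassium or share its signals were counted from lists chosen with earlier results known. At the low dose against MPTP, 1 of 14 partner genes of potassium channels rose and 2 fell by the same test, where 4.78% of all genes rose and 3.75% fell, and group means are given here. Lgi1, a secreted partner of Kv1 complexes, had 131 against 89.6 CPM. Dpp6, which assembles with Kv4 channels, had 230 against 349 CPM, and Abcc9, the sulfonylurea receptor of vascular ATP-sensitive channels, 6.98 against 15.8 CPM. Abcc9 also fell at the high dose, to 6.99 CPM. Of genes that move potassium across membranes 2 of 10 fell, among them the sodium pump gene Atp1b2 (451 against 939 CPM), typical of astrocytes. Of sodium channel genes 1 of 13 fell, Scn1a (123 against 275 CPM), and of calcium channel genes 1 of 18 fell, Cacna1g (94.3 against 203 CPM). Of HCN and leak channel genes 0 of 8 passed. Endothelial scores were -0.83 to -0.09 in low-dose libraries and 0.13 to 0.81 in MPTP libraries, and their part in the result for Abcc9 was not tested.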

How the data were processed

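Polyadenylated RNA of 15 mouse brain libraries was sequenced with a stranded kit, per the labels' protocols. The authors deposited 1 table per library of raw read counts by gene symbol, in whole numbers. The tools named in the submitters' processing notes are HISAT2 2.1.0, StringTie 2.1.3b, Trimmomatic and bcl2fastq 2.20.0, with the build GRCm38/mm10. The annotation, strand setting and handling of shared reads are not stated there, so overlapping genes are uncertain. No column of other samples was present.

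Counts were tested with edgeR 4.0.16 (R 4.3.3) by the quasi-likelihood test, with TMM, filterByExpr by group and 1 fit of 15 libraries without covariates. Adjusted p-values use Benjamini-Hochberg over 21821 genes at 0.05. Standard errors were derived from the log2 fold change and F. Levels are TMM-scaled CPM, and 3 reads were at most 0.0516 CPM. Gene positions and exon lengths come from GENCODE M21 (GRCm38). Replicate pairs differed beyond sampling noise (chi-square per degree of freedom of at least 29.3). The test was run on simulated counts drawn from a mean profile common to all libraries, which lack the regional differences seen between these libraries.

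The members and lists were chosen with earlier results of these data known. Genes named by rule were those that passed, the most abundant of each subfamily and a set chosen by role, and other members were named after their values were seen. Alternatives were other normalizations and filters, DESeq2 1.42.0, the compared groups alone and a replicate block. Further ones left out each library of the compared groups in turn, or both libraries with high cerebellar markers, or used 3 regional scores as covariates. A few genes that were tested and counted are not reported here by name or drawn in the figures.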

Additional observations from a re-analysis of the deposited data

How the results depend on the processing

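Under 15 alternatives for each of 34 gene results (510 in all), 414 kept their direction and side of the threshold, 52 lost the call, 40 gained it and 4 reversed. With regional scores as covariates 0 genes rose or fell in any comparison, and the log2 fold changes that reversed were 0.25 (Kcna2, low dose against control), -1.61 (Kcnh3, low dose against control), 0.06 (Kcna2, high dose against control) and 0.05 (Kcnip1, high dose against control); the cause was not tested. Without control 2 and levodopa 2 together, 18 rose and 14 fell at the low dose against MPTP, and 9 rose and 4 fell at the high dose against MPTP, and 4 rose and 7 fell at the low dose against control. With only the compared groups in the fit, which tested 77 of the channel genes, 19 rose and 16 fell at the low dose against MPTP (4253 of 20426 genes in all changed either way), 14 rose and 5 fell at the high dose against MPTP (3560 of 20384 in all), and 0 rose and 0 fell at the low dose against control (11 of 20346 in all). DESeq2, over 33141 genes, gave 8 rising and 6 falling at the low dose against MPTP (3254 in all), 3 and 2 at the high dose against MPTP (1620 in all), 3 and 9 at the low dose against control (2689 in all), and 1 and 3 at the high dose against control (1357 in all). RLE normalization and the filter of 5 CPM in 3 libraries each gave 1 falling at the high dose against MPTP (Kcnj16), and that filter gave 1 falling at the high dose against control (Kcna2). Upper-quartile normalization and no filter gave 0 rising at the low dose against control. Each library of the compared groups was left out in turn, with 6 fits per comparison. This gave 0 to 2 rising and 0 to 4 falling at the low dose against MPTP. At the low dose against control it gave 0 to 3 rising and 0 to 7 falling, and elsewhere 0 in each direction. Leaving out control 2 or levodopa 2 alone was not run for the low dose against MPTP. Among single libraries left out, the Kcnj16 call of low dose against MPTP was lost without MPTP replicate 3 only (adjusted p = 0.0632 by edgeR). That of Kcnip1 was lost without MPTP replicate 3 or low-dose replicate 3 (edgeR adjusted p = 0.0615 and 0.0515). Both calls were also lost with regional scores as covariates.

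Replicate numbers did not pair the libraries, since in no comparison did every same-numbered pair correlate above 0.1. With the number as a replicate block 0 genes rose at the low dose against control, in place of 1, and no other count moved beyond 1.5 times. Groups of 3 libraries limit the precision, and low genes such as Kcnv2 rest on few reads.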
